A study of Mus musculus with 35 samples.

Results

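The 10 genes described here encode chromatin repressors of transposons and imprinted loci. *Setdb1*, *Suv39h1*, *Suv39h2*, *Ehmt1* and *Ehmt2* encode methyltransferases of lysine 9 of histone H3 (H3K9), *Zfp57* and *Zfp809* KRAB zinc finger proteins, *Trim28* a scaffold protein, *Kdm1a* a histone demethylase and *Atrx* a chromatin remodeller. They were chosen by symbol, as 10 of the 26127 rows of a table of gene expression in mouse embryonic stem cells (ESCs). The rule used no measured value, but the members were chosen with earlier results of these data known. The cells carry a conditional *Dnmt1* loxP/loxP allele. *Dnmt1* encodes the maintenance DNA methyltransferase, which copies CpG methylation to the new strand after replication, and the study asked how cells that lose this methylation keep transposons in check. KO groups are libraries labelled DNMT1KO, in which the allele is cut by a Cre recombinase induced with tamoxifen (4OHT), and WT groups are libraries labelled control. Both were sampled on days 0, 1, 3, 6, 9, 11, 17 and 25, with 2 libraries for each genotype and day and 3 at day 1, which makes 17 WT and 17 KO libraries. The last library, labelled Dicer KO, comes from cells in which the nuclease gene was removed with CRISPR/Cas9, and it has no replicate. All cells grew in serum medium with LIF, with or without feeder cells. The labels give the background strain of every library as E14 and the study's methods give C57BL/6 for the *Dnmt1* line. Nothing states that libraries of 1 group came from separate cultures, so p-values measure the spread between these libraries, which may be technical.

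KRAB zinc finger proteins bind DNA sequences in transposons and imprinted loci and recruit TRIM28 (KAP1), a scaffold protein. TRIM28 brings in the methyltransferase SETDB1, which trimethylates H3K9, and HP1 proteins, which bind that mark. In ESCs this pathway silences endogenous retroviruses such as the IAP elements, while the SUV39H enzymes methylate H3K9 in pericentric heterochromatin and the EHMT pair (GLP and G9a) makes the mono- and dimethyl mark in euchromatin.

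The measure was RPKM, reads per kilobase of exon and per mega-read of the library, so levels can be compared between genes. Between 5.10 and 17.5 mega-reads per library fell in exons of genes. In 20 libraries, all of days 0 to 9 but the third pair of day 1, these made up 20.2% to 22.0% of the library. In the other 15, from that pair, day 11 onwards and Dicer KO, they made up 44.1% to 48.8%. Levels of the 10 genes are therefore compared only within the former (low-share) or within the latter (high-share) libraries, and the third pair of day 1 was left out of the fit, which used 32 libraries. *Dnmt1* RNA followed the labels from day 1 on, except at day 6. In the low-share libraries of days 1, 3 and 9 it was between 17.9 and 19.9 RPKM in WT and between 2.78 and 3.32 RPKM in KO, but at day 6 the libraries labelled WT had 3.22 and 3.40 RPKM and those labelled KO 20.2 and 20.4 RPKM. In the high-share libraries WT had 14.1 to 34.7 RPKM and KO 2.58 to 4.40 RPKM, with 8.13 RPKM in the third KO library of day 1. Labels were kept, day 6 is given as labelled, and it entered no mean over days. The ESC markers *Pou5f1*, *Sox2*, *Nanog* and 7 others were all above 0 in every library, with a summed level of 665 to 836 RPKM in the low-share libraries and 1051 to 1941 RPKM in the high-share *Dnmt1* series. The 9 fibroblast and feeder markers summed to 4.64 to 13.8 RPKM in the former and to 0.570 to 2.67 RPKM in the latter. In bulk RNA, fewer cells with a transcript and less RNA per cell cannot be told apart.

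*Dnmt1* acts on CpG sites, so the promoters of 4 members are shown with every CpG in capitals: *Setdb1*, *Zfp57*, *Trim28* and *Atrx*, on whose values the results below turn. The sequences are RefSeq promoter windows of 300 bases, from 250 before to 50 after the start of transcription. RefSeq gives them on GRCm38.p6, and each was placed on NCBIM37, the build of the deposited table, by its single exact match: *Zfp57* at chr17:37137858-37138157 (plus strand), *Setdb1* at chr3:95161075-95161374 (minus strand), *Trim28* at chr7:13609251-13609550 (plus strand) and *Atrx* at chrX:103124662-103124961 (minus strand). Each is written 5′ to 3′ on the strand of its gene.
Zfp57: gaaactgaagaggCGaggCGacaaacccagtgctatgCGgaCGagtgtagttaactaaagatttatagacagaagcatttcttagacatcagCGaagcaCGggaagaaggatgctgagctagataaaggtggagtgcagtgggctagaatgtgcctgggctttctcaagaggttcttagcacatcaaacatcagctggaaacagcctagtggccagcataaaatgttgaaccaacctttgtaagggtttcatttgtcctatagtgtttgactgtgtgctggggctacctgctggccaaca
Setdb1: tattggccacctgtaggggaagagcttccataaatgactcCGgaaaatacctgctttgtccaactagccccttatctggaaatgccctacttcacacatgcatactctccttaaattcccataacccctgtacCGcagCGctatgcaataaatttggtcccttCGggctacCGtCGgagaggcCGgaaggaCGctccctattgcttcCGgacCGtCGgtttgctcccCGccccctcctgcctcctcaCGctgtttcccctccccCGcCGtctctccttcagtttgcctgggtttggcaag
Trim28: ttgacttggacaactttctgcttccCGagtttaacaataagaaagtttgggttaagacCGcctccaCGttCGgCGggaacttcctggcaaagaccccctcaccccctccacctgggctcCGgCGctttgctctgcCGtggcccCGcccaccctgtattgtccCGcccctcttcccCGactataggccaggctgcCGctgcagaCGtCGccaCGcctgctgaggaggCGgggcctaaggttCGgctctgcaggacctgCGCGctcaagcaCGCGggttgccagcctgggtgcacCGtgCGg
Atrx: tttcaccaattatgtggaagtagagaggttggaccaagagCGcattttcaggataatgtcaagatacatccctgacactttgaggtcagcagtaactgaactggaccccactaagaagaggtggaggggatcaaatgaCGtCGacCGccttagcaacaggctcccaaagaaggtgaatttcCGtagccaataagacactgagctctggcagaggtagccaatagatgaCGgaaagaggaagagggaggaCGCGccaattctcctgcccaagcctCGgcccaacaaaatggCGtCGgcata

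The *Zfp57* window held 6 CpG sites, the *Atrx* window 11, the *Setdb1* window 15 and the *Trim28* window 23, against a median of 7 over the 32851 windows of the same length, of which 94.6% held at least 1 CpG. Among the other members, *Zfp809* had 11 CpG sites, *Suv39h1* 15, *Ehmt2* 28, *Kdm1a* 29, *Suv39h2* 33 and *Ehmt1* 34. Among the windows used, that of *Zfp57* thus held the fewest, and the other 9 lay above the median of all windows. RefSeq lists 3 windows for *Zfp57* and 2 each for *Zfp809*, *Suv39h1* and *Ehmt2*. The placed window nearest the 5′ end of the gene in the deposited table was taken, which for *Zfp809* lay 118 bases from that end. CpG counts of the other windows of these genes are not given here. Methylation of these windows was not analysed here, and the count of CpG sites describes the sequence alone.

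All 10 genes were expressed in every library, with no value under 1.60 RPKM. *Trim28*, the scaffold, was the most abundant, with a median of 71.5 RPKM (66.6 to 98.0) over the 8 low-share WT libraries other than day 6 and of 79.1 RPKM (40.1 to 155) over the 6 high-share WT libraries. *Zfp57*, which keeps imprinted loci methylated, came next in both sets, with medians of 23.7 and 35.2 RPKM. *Kdm1a* (LSD1, a demethylase of H3K4) followed with 14.2 and 25.12 RPKM, and *Atrx*, a chromatin remodeller that works with DAXX to deposit histone H3.3, with 13.9 and 24.3 RPKM. *Ehmt2* had medians of 7.70 and 13.6 RPKM and *Setdb1* 7.23 and 12.1 RPKM. *Suv39h2* (3.40 and 8.34 RPKM), *Ehmt1* (3.33 and 6.77 RPKM), *Suv39h1* (2.34 and 3.99 RPKM) and *Zfp809* (2.12 and 6.12 RPKM) were the least abundant, and the last 2 changed places between the sets. In the low-share libraries the ranges of *Kdm1a* (13.1 to 16.1) and *Atrx* (11.104 to 15.0) overlapped, as did those of *Ehmt2* (6.88 to 10.2) and *Setdb1* (6.85 to 7.71), of *Suv39h2* (3.14 to 3.65) and *Ehmt1* (3.03 to 3.64), and of *Suv39h1* (2.11 to 2.78) and *Zfp809* (1.66 to 2.53). The range of *Zfp57* (16.0 to 31.2) met that of *Kdm1a* at its lower end, while *Trim28* stood apart from *Zfp57*, *Atrx* from *Ehmt2*, *Setdb1* from *Suv39h2* and *Ehmt1* from *Suv39h1*. In the high-share libraries even *Trim28* and *Zfp57* (29.5 to 61.0) overlapped. *Zfp809* also rested on the fewest reads, with a median of 172 and a minimum of 53 per library, where counting alone gives a coefficient of variation of 13.7%. *Trim28* had at least 5270 reads in every library.

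**Figure D1:**
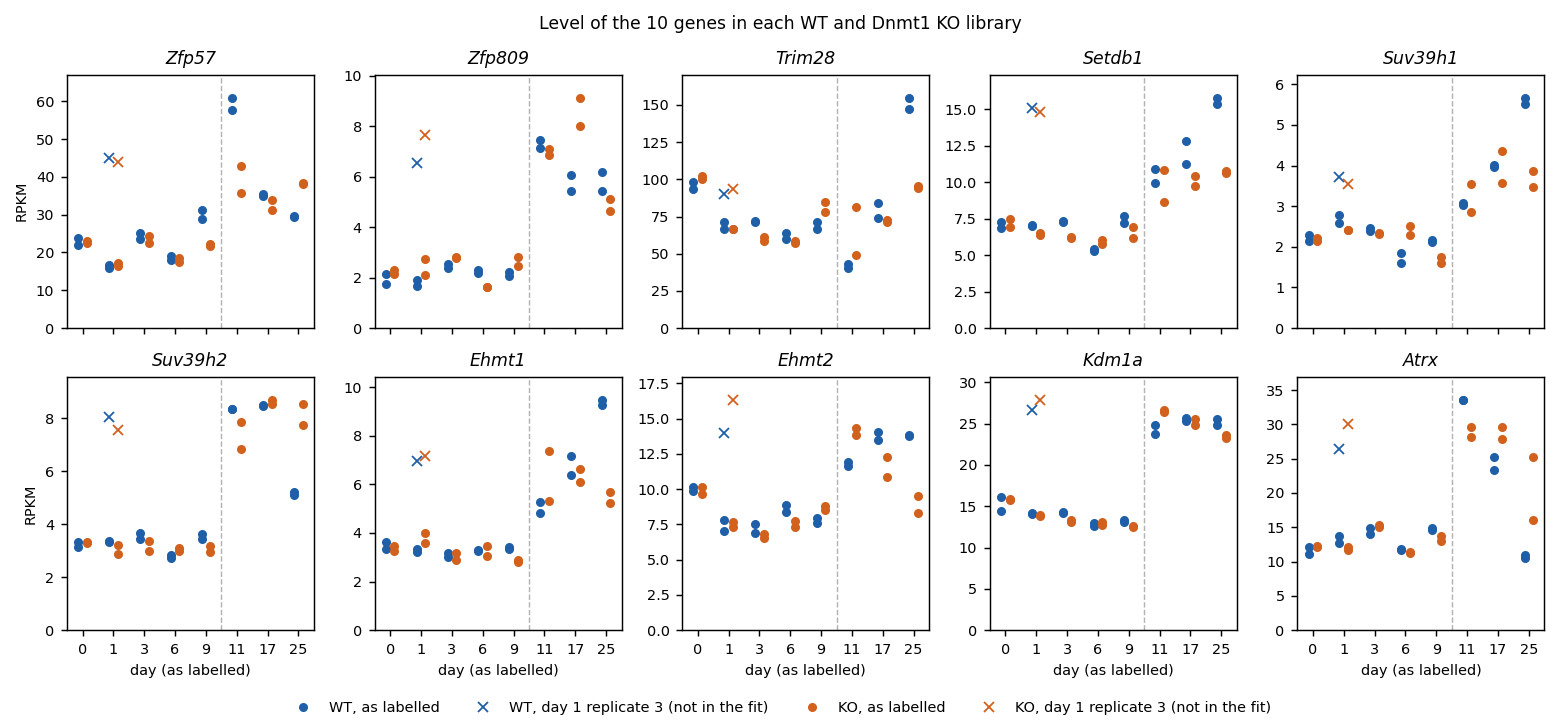
RPKM of each of the 10 genes (vertical axis, linear from 0) in every WT (blue) and KO (orange) library by labelled day, with the third pair of day 1 as crosses and a dashed line between the low-share and high-share days. WT *Trim28* lies between 147 and 155 RPKM at day 25, above all other libraries of the series, and WT *Atrx* between 10.5 and 10.9 RPKM, below all other high-share libraries.

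The first comparison took KO against WT day by day. Differences are on the log2(RPKM + 0.1) scale, KO minus WT, and a gene was called at a Benjamini-Hochberg adjusted p below 0.05 over the 11594 genes tested with limma. None of the 10 was called at day 0, where 0.0% of all genes were called, none at day 1 (0.285% of all genes) and none at day 3 (11.9%). The smallest adjusted p among them was 0.210 at day 1 (*Zfp809*) and 0.0874 at day 3 (*Setdb1*). At an unadjusted limma p below 0.05 there were 0 at day 0, 1 at day 1 and 2 at day 3, and voom on recovered reads also called 0 on each of these days. At day 9, 2 were called, both lower (28.0% of all genes, 10.9% lower). Day 11 had 4, of which 3 were higher and 1 lower (35.8% of all genes, 23.2% higher and 12.7% lower). At day 17 there were 3, with 1 higher and 2 lower (41.0% of all genes, 29.3% higher and 11.7% lower). Day 25 had 8, with 3 higher and 5 lower (66.0% of all genes, 39.8% higher and 26.2% lower). As labelled, day 6 had 3, with 1 higher and 2 lower (28.0% of all genes, 9.0% higher and 19.0% lower). At days 6 to 17 the members' count was near or below the share of all genes, and at day 25, where all genes had a median difference of 0.13, it was 8 of 10. Centring each library on its median moved KO minus WT by -0.18 at day 17, by -0.11 at day 11 and by 0.0046 at day 25. At day 17 it raised the count from 3 to 7, with only *Zfp809* higher, and at day 9 from 2 to 5. With the third pair of day 1 in the fit no member was called at days 0 to 17, and at day 25 only *Suv39h1* and *Trim28* were. The calls of single days thus rest on leaving out that pair, whose gene-read share differs from the rest of day 1. The fit also shares the spread of a gene over all groups. Replicates were least alike in KO at day 11, with a Pearson r of 0.969 across genes. With only the groups compared in the fit, 2 members were called at day 3, 6 at day 9, 0 at day 11, 1 at day 17 and 8 at day 25. Single libraries moved the smaller counts too. Day 9 had 1 call without WT replicate 1, WT replicate 2 or KO replicate 1 of that day, 4 without KO replicate 1 or 2 of day 1 and 6 without KO replicate 1 or 2 of day 11. Day 3 had 2 without either of these last, day 6 had 1 without its WT replicate 1, and day 17 had 1 without its KO replicate 1 or WT replicate 2.

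**Figure D2:**
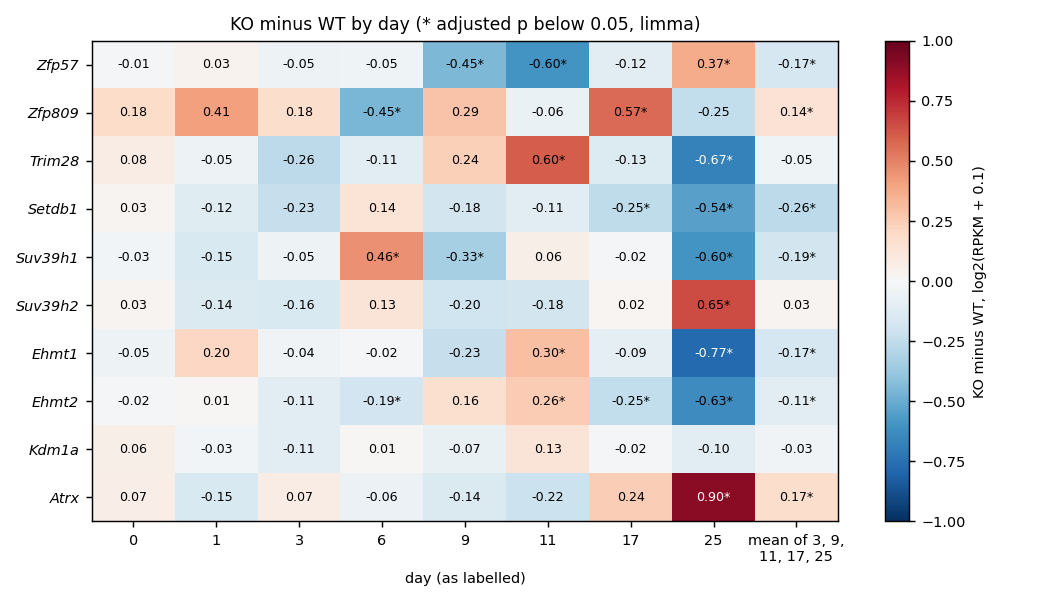
KO minus WT of the 10 genes (rows) at each labelled day and over the mean of days 3, 9, 11, 17 and 25 (columns), as differences of log2(RPKM + 0.1) on a colour scale from -1 to 1, with asterisks for an adjusted p below 0.05. Day 25 holds 8 of the asterisks of the single days and the largest differences, and *Setdb1* is below 0 at all 5 days of the mean.

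*Setdb1* (ENSMUSG00000015697.8; chromosome 3 of NCBIM37, 95127447 to 95161124, minus strand), the enzyme that trimethylates H3K9 in the TRIM28 pathway, was the one member that was lower in KO at all 5 days of the mean. It had 7.33 and 7.30 RPKM in WT and 6.28 and 6.19 RPKM in KO at day 3. At day 9 it had 7.71 and 7.21 RPKM in WT and 6.95 and 6.203 RPKM in KO. The groups did not overlap at either day. How many of all genes had groups apart was not computed, for this gene or those below. With 2 libraries a group, separation alone says little. At day 11 it had 9.94 and 10.9 RPKM in WT and 8.61 and 10.8 RPKM in KO, with 1 KO library inside the WT range. At day 17 WT had 11.3 and 12.8 RPKM and KO 9.74 and 10.4 RPKM, and at day 25 WT had 15.4 and 15.8 RPKM and KO 10.6 and 10.8 RPKM. Of all genes, 6.46% were below WT at all 5 days. Its mean log2 difference over the 5 days was -0.26 (SE 0.038, adjusted p = 4.7e-06), and it was -0.19 without day 25 (SE 0.042, adjusted p = 6.1e-04). Single days passed at day 17 (-0.25, SE 0.085, adjusted p = 0.0197) and day 25 (-0.54, adjusted p = 1.3e-05). The call at day 17 was lost without KO replicate 1 (adjusted p = 0.141) or WT replicate 2 (-0.16, adjusted p = 0.211) of that day. At day 0, before deletion, WT had 7.25 and 6.85 RPKM and KO 6.95 and 7.45 RPKM. At day 6 the libraries labelled WT, which were low in *Dnmt1*, had 5.27 and 5.41 RPKM and those labelled KO 5.74 and 6.03 RPKM (0.14, adjusted p = 0.241).

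*Zfp57* (ENSMUSG00000036036.9; chromosome 17, 37138108 to 37147580, plus strand), the KRAB zinc finger gene whose promoter is printed first above, was lower in KO at days 9 and 11 and higher at day 25. It had 28.8 and 31.2 RPKM in WT and 21.7 and 22.1 RPKM in KO at day 9, a log2 difference of -0.45 (SE 0.076, adjusted p = 1.4e-04). At day 11 it had 57.8 and 61.0 RPKM in WT and 35.7 and 43.0 RPKM in KO, a log2 difference of -0.60 (adjusted p = 3.1e-06). The groups did not overlap on either day. At day 17 the difference was -0.12 (adjusted p = 0.239), and at day 25 WT fell to 29.7 and 29.5 RPKM, below the KO libraries with 38.4 and 38.1 RPKM (0.37, adjusted p = 2.3e-04). The mean over the 5 days was -0.17 (SE 0.034, adjusted p = 2.2e-04) and that without day 25 was -0.30 (SE 0.038, adjusted p = 7.4e-07), the lowest of the 10 genes.

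*Zfp809* (ENSMUSG00000057982.6; chromosome 9, 22030274 to 22047641, plus strand) encodes the KRAB zinc finger protein that binds the primer binding site of murine leukaemia virus and related endogenous retroviruses. It was higher in KO at day 17, with 6.06 and 5.45 RPKM in WT and 9.14 and 8.01 RPKM in KO (0.57, SE 0.11, adjusted p = 3.9e-04). At days 3 and 9 KO was also above WT without a call (0.18 and 0.29, adjusted p = 0.368 and 0.0647), and at day 11 it was just below WT, with 7.12 and 7.47 RPKM in WT and 7.09 and 6.85 RPKM in KO (-0.06, adjusted p = 0.697). The mean over the 5 days was 0.14 (SE 0.051, adjusted p = 0.0194). That mean lost its call without KO replicate 1 of day 17 (0.13, adjusted p = 0.05002) and after centring (0.07). At day 25 KO was below WT, with 5.43 and 6.19 RPKM in WT and 5.12 and 4.64 RPKM in KO (-0.25, adjusted p = 0.0615), and the mean without that day was 0.24 (SE 0.057, adjusted p = 0.0011). At day 6 it was called lower in the libraries labelled KO (-0.45, adjusted p = 0.0048). The libraries labelled WT, which were low in *Dnmt1*, had 2.32 and 2.19 RPKM and those labelled KO 1.62 and 1.61 RPKM. Without WT replicate 1 of day 6 that adjusted p was 0.0505.

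*Trim28* (ENSMUSG00000005566.7; chromosome 7, 13609501 to 13616384, plus strand) changed in both directions. It was higher in KO at day 11 (0.60, SE 0.13, adjusted p = 0.0011), with 40.1 and 42.9 RPKM in WT and 48.9 and 81.4 RPKM in KO, so that the KO libraries lay farther apart than the nearer of them lay from WT. Without KO replicate 2 of day 11 the difference was 0.24 (adjusted p = 0.0183), and without KO replicate 1 it was 0.97 (adjusted p = 3.0e-09). At day 25 it was lower in KO, with 155 and 147 RPKM in WT and 95.3 and 94.0 RPKM in KO (-0.67, adjusted p = 1.4e-04). At day 3, WT had 71.4 and 72.1 RPKM and KO 58.3 and 61.3 RPKM without a call (-0.26, adjusted p = 0.221), and at day 9 WT had 71.6 and 66.6 RPKM and KO 85.0 and 78.2 RPKM (0.24, adjusted p = 0.186). The groups did not overlap at any of these 4 days, 2 of them in each direction, though 2 of the 4 had no call. Over the 5 days the mean was -0.05 (SE 0.059, adjusted p = 0.519).

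The SUV39H genes encode the enzymes of H3K9 trimethylation at pericentric repeats. *Suv39h1* (ENSMUSG00000039231.12; chromosome X, 7638297 to 7651886, minus strand) had 2.17 and 2.11 RPKM in WT and 1.61 and 1.75 RPKM in KO at day 9 (-0.33, SE 0.097, adjusted p = 0.0138). At day 25 it had 5.52 and 5.67 RPKM in WT and 3.87 and 3.47 RPKM in KO (-0.60, adjusted p = 1.9e-05). The groups were apart on both days, and the mean over the 5 days was -0.19 (SE 0.043, adjusted p = 8.9e-04), but without day 25 it was -0.09 (adjusted p = 0.146). The call at day 9 was lost without KO replicate 1 (adjusted p = 0.129), WT replicate 1 (adjusted p = 0.0761) or WT replicate 2 (adjusted p = 0.0549) of that day. At day 6, the libraries labelled WT, which were low in *Dnmt1*, had 1.60 and 1.85 RPKM and those labelled KO 2.30 and 2.50 RPKM (0.46, adjusted p = 0.0012).

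*Suv39h2* (ENSMUSG00000026646.10; chromosome 2, 3373087 to 3392303, minus strand), its paralogue, went the other way at day 25. WT had 5.19 and 5.10 RPKM and KO 7.74 and 8.54 RPKM, a log2 difference of 0.65 (SE 0.076, adjusted p = 3.5e-07). At days 3, 9 and 11 the differences were -0.16, -0.20 and -0.18 with no call (adjusted p = 0.213, 0.0541 and 0.0640). Their mean with day 17 was -0.13 (SE 0.038, adjusted p = 0.0068), while the mean with day 25 as well was 0.03 (adjusted p = 0.516).

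*Ehmt1* (ENSMUSG00000036893.9; chromosome 2, 24646289 to 24775129, minus strand) and *Ehmt2* (ENSMUSG00000013787.9; chromosome 17, 35035414 to 35050997, plus strand) encode the 2 subunits of the GLP-G9a dimer. *Ehmt1* had 4.83 and 5.28 RPKM in WT and 5.30 and 7.37 RPKM in KO at day 11 (0.30, SE 0.11, adjusted p = 0.0328), and 9.28 and 9.48 RPKM in WT and 5.66 and 5.24 RPKM in KO at day 25 (-0.77, adjusted p = 3.2e-06). *Ehmt2* had 11.9 and 11.6 RPKM in WT and 13.8 and 14.3 RPKM in KO at day 11 (0.26, SE 0.072, adjusted p = 0.0082). At day 25 it had 13.9 and 13.8 RPKM in WT and 9.48 and 8.33 RPKM in KO (-0.63, adjusted p = 2.7e-07). Both genes were thus above WT at day 11 and below it at day 25, with no overlap of groups. At day 17, *Ehmt2* was lower in KO, with 13.5 and 14.03 RPKM in WT and 10.9 and 12.3 RPKM in KO (-0.25, adjusted p = 0.0084). The call of *Ehmt1* at day 11 was lost without KO replicate 2, where the difference fell to 0.07 (adjusted p = 0.616), or WT replicate 1 (adjusted p = 0.210), and without KO replicate 1 the difference was 0.54 (adjusted p = 1.2e-04). That of *Ehmt2* at day 11 was lost without WT replicate 2 (adjusted p = 0.0505), and at day 17 without KO replicate 1 (-0.16, adjusted p = 0.153) or WT replicate 2 (adjusted p = 0.0559). After centring neither gene was called at day 11 (0.19 and 0.14). Means over the 5 days were -0.17 for *Ehmt1* (SE 0.048, adjusted p = 0.0055) and -0.11 for *Ehmt2* (SE 0.032, adjusted p = 0.0045), and without day 25 they were -0.01 and 0.01 (adjusted p = 0.845 and 0.758). At day 6 *Ehmt2* was called lower in the libraries labelled KO (-0.19, adjusted p = 0.0479), a call that 20 of the 32 fits without 1 library lost, with adjusted p up to 0.253.

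*Kdm1a* (ENSMUSG00000036940.9; chromosome 4, 136106455 to 136158638, minus strand) was called on no day. Its differences lay between -0.11 and 0.13 over the 5 days with an SE of 0.050. At day 25 it had 24.9 and 25.5 RPKM in WT and 23.6 and 23.3 RPKM in KO, apart but without a call (-0.10, adjusted p = 0.0748). Its mean over the 5 days was -0.03 (SE 0.023, adjusted p = 0.189), and after centring the mean was -0.11 and called.

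*Atrx* (ENSMUSG00000031229.9; chromosome X, 102992954 to 103124736, minus strand) was called at day 25 alone and had the largest difference of the 10 genes there. WT had 10.9 and 10.5 RPKM and KO 16.0 and 25.3 RPKM (0.90, SE 0.12, adjusted p = 1.4e-06). The KO libraries differed from each other by more than the nearer of them differed from WT, and without KO replicate 2 the difference was 0.57 (adjusted p = 4.4e-06). At day 17 WT had 23.3 and 25.3 RPKM and KO 27.9 and 29.6 RPKM without a call (0.24, adjusted p = 0.103), and at day 11 WT had 33.5 and 33.6 RPKM and KO 29.7 and 28.1 RPKM (-0.22, adjusted p = 0.160). The mean over the 5 days was 0.17 (SE 0.052, adjusted p = 0.0078), and 0.11 without that library (adjusted p = 0.0036). Without day 25 the mean was -0.01 (adjusted p = 0.899).

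Over the 5 days together 7 of the 10 genes were called, 5 lower and 2 higher, against 58.5% of all genes, 37.8% higher and 20.7% lower. Without day 25 the number was 4, *Setdb1*, *Zfp57* and *Suv39h2* lower and *Zfp809* higher, against 53.3% of all genes, 19.2% lower and the others, 3943 of 11594 genes, higher. That number was 6 after centring, 7 after smoothing on GC content and exon length and 0 with the third pair of day 1 in the fit. The median difference of the 10 genes was -0.08 with day 25 and -0.02 without it, against 0.06 and 0.05 for all genes. In the low-share libraries, days 3 and 9 together gave 5 called genes, 4 lower and 1 higher (31.5% of all genes). In the high-share libraries, days 11, 17 and 25 gave 7, 5 lower and 2 higher (57.5% of all genes). *Setdb1* was lower in both (-0.20 and -0.30, adjusted p = 0.0119 and 2.4e-05). Its call over days 3 and 9 was lost without WT replicate 1 (adjusted p = 0.0536) or KO replicate 2 (adjusted p = 0.0720) of day 9. The 5 calls of days 3 and 9 fell to 2 without either of these or without WT or KO replicate 1 of day 3, and to 3 without KO replicate 2 of day 3 or WT replicate 2 of day 9. At these days the summed fibroblast and feeder markers moved with genotype, from 5.26 and 6.11 RPKM in WT to 9.50 and 9.68 RPKM in KO at day 3 and from 7.11 and 8.13 to 12.7 and 13.8 RPKM at day 9. None of the 9 was at 0 there. The summed ESC markers were lower in KO at both days, from 793 and 836 to 751 and 753 RPKM at day 3 and from 736 and 756 to 665 and 689 RPKM at day 9, with 2 and 3 of the 10 called lower and 0 higher. The 7 differentiation markers in the table summed to 2.05 and 2.15 RPKM in WT and 3.22 and 3.36 RPKM in KO at day 9, and to 2.01 and 2.20 against 3.27 and 3.57 RPKM at day 17, with 2 of the 3 tested called higher on each day. At day 11 the sum of the fibroblast and feeder markers went the other way, from 2.44 and 2.67 RPKM in WT to 0.608 and 0.904 RPKM in KO. Of the 4 of these markers that were tested, 1 was called higher at day 11, 1 lower and 2 not called. At days 3 and 9, 3 of the 4 were called higher and 0 lower. The part of such cells in the differences of these days was not tested.

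The next comparison followed the 10 genes from day 17 to day 25, the last interval of the high-share libraries. The change was larger in WT than in KO for 7 of them, though *Zfp57* was nearly tied (-0.25 and 0.24). More of all genes were called in WT than in KO as well, and the share with a larger change in WT was not computed. In WT 7 of the 10 changed (64.0% of all genes), with *Trim28* (0.94, SE 0.13, adjusted p = 4.0e-06), *Suv39h1* (0.48, adjusted p = 2.3e-04), *Ehmt1* (0.47, adjusted p = 7.8e-04) and *Setdb1* (0.37, adjusted p = 7.1e-04) higher at day 25, and *Atrx* (-1.17, adjusted p = 6.8e-08), *Suv39h2* (-0.71, adjusted p = 1.5e-07) and *Zfp57* (-0.25, adjusted p = 0.0067) lower. In KO 5 of the 10 changed (36.1% of all genes), with *Trim28* (0.40, adjusted p = 0.0216) and *Zfp57* (0.24, adjusted p = 0.0179) higher and *Zfp809* (-0.80, adjusted p = 1.2e-05), *Atrx* (-0.51, adjusted p = 0.0016) and *Ehmt2* (-0.38, adjusted p = 3.0e-04) lower. *Trim28* rose and *Atrx* fell in both genotypes, while *Zfp57* fell in WT and rose in KO. Leaving out 1 KO library lowered the 5 calls to 3 (replicate 1 of day 17 or replicate 2 of day 25) or 2 (replicate 1 of day 25, where *Atrx* fell by 0.18, adjusted p = 0.0736). Without replicate 2 of day 25 *Atrx* fell by 0.84 (adjusted p = 1.2e-07). *Trim28* lost its call in KO without any 1 of the 4 KO libraries of these days (adjusted p up to 0.0950) and *Zfp57* without replicate 1 of day 17 or either replicate of day 25 (adjusted p up to 0.174).

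**Figure D3:**
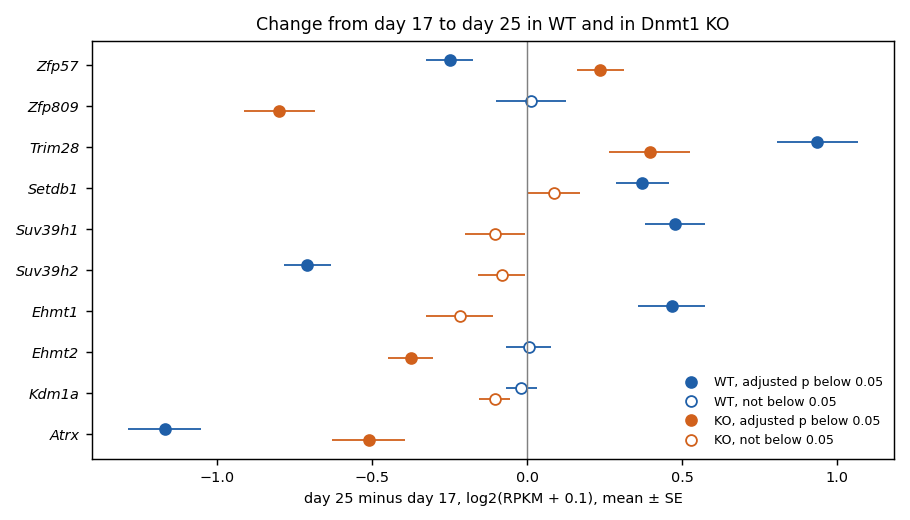
Change of the 10 genes from day 17 to day 25 (horizontal axis, difference of log2(RPKM + 0.1), mean ± SE from limma, n = 2 libraries a group) in WT (blue) and KO (orange), with filled points for an adjusted p below 0.05. WT *Atrx* (-1.17) and WT *Trim28* (0.94) lie at the 2 ends, and *Kdm1a* is called in neither.

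The KO effect, KO minus WT, itself differed between days 25 and 17 for 9 of the 10 genes (55.1% of all genes), all but *Kdm1a* (-0.09, adjusted p = 0.315). It fell most for *Zfp809* (-0.81, SE 0.16, adjusted p = 2.8e-04), *Ehmt1* (-0.68, adjusted p = 8.0e-04), *Suv39h1* (-0.58, adjusted p = 0.0013) and *Trim28* (-0.54, adjusted p = 0.0176), and rose for *Atrx* (0.66, adjusted p = 0.0023), *Suv39h2* (0.63, adjusted p = 7.0e-05) and *Zfp57* (0.49, adjusted p = 7.4e-04). For *Zfp809* the KO libraries moved, with 9.14 and 8.01 RPKM at day 17 and 5.12 and 4.64 RPKM at day 25, while WT had 6.06 and 5.45 and then 5.43 and 6.19 RPKM. *Ehmt2* (-0.38, adjusted p = 0.0035) and *Setdb1* (-0.29, adjusted p = 0.0480) were called as well, and after smoothing on GC content and exon length both were near 0 (0.09 and 0.05, adjusted p = 0.470 and 0.640). *Trim28* lost its call without WT replicate 1 of day 17 (adjusted p = 0.0798) or WT replicate 1 of day 25 (adjusted p = 0.0550). *Setdb1* lost it in 24 of the 32 fits without 1 library (adjusted p up to 0.222). The change of *Atrx* was 0.33 without KO replicate 2 of day 25 (adjusted p = 0.0086). The KO effect of days 11, 17 and 25 against that of days 3 and 9 differed for 3 of the 10 genes (19.9% of all genes), *Suv39h2*, *Atrx* and *Ehmt2*.

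Some values moved with the libraries of day 25. The ESC markers summed to 1051 and 1079 RPKM in WT and to 1342 and 1355 RPKM in KO at day 25, against 1333 and 1544 RPKM in WT at day 17. Of these 10 markers 6 were called higher in KO at day 25, 2 lower and 2 not called, against 39.8% of all genes higher and 26.2% lower. The farthest from 0 was *Nanog*, at 30.7 and 32.7 RPKM in WT and 144 and 155 RPKM in KO, and *Utf1* (-0.98, adjusted p = 7.5e-06) and *Lin28a* (-0.20, adjusted p = 0.0200) were the lower ones, all 3 named after their values were seen. The fibroblast and feeder markers summed to at most 0.923 RPKM in either genotype. The profile of WT at day 25 had a Pearson r across genes of 0.946 with WT at day 17 and KO at day 25 had one of 0.971 with KO at day 17. Exon GC content was 57.3% for *Trim28* and 60.3% for *Ehmt2*, both lower in KO at day 25, and 38.7% for *Atrx* and 43.1% for *Suv39h2*, both higher. The other members did not order in this way. *Zfp809* (44.2%) was lower without a call, *Setdb1* (47.5%), *Ehmt1* (48.1%) and *Suv39h1* (49.1%) were lower and *Zfp57* (47.7%) was higher. *Kdm1a* (47.3%) was not called. Over all genes, KO minus WT at day 25 had a Spearman correlation of -0.17 with exon GC content and of -0.30 with exon length. With both smoothed out, all 8 calls of day 25 kept their direction and passed the test, *Atrx* at 1.08 and *Trim28* at -0.57, with *Ehmt2* at -0.39, *Setdb1* at -0.34 and *Zfp809* now called at -0.70. The part of the state of the WT cells at day 25 in these differences was not tested.

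The WT libraries were then compared with each other between days. From day 0 to day 9, 5 of them changed (16.4% of all genes). *Trim28* had 98.0 and 93.8 RPKM at day 0 and 71.6 and 66.6 RPKM at day 9 (-0.47, SE 0.13, adjusted p = 0.0168), and *Ehmt2* (-0.36, adjusted p = 0.0021) and *Kdm1a* (-0.21, adjusted p = 0.0082) fell with it. *Kdm1a* was at -0.13 without WT replicate 2 of day 0 (adjusted p = 0.172). *Zfp57* rose, from 21.9 and 23.9 RPKM to 28.8 and 31.2 RPKM (0.39, adjusted p = 0.0018), and so did *Atrx* (0.35, adjusted p = 0.0479). *Atrx* lost its call in 26 of the 32 fits without 1 library (adjusted p up to 0.258). No call was left without WT replicate 2 of day 9, 2 without WT replicate 2 of day 0, and 3 without replicate 1 of either day. From day 11 to day 25, 9 of the 10 changed (68.6% of all genes), 5 higher and 4 lower. *Trim28* rose by 1.86 (adjusted p = 1.2e-10), from 40.1 and 42.9 RPKM to 155 and 147 RPKM, and *Ehmt1* (0.88), *Suv39h1* (0.85) and *Setdb1* (0.58) rose as well. *Atrx* fell by 1.64 (adjusted p = 1.6e-10), from 33.5 and 33.6 RPKM to 10.9 and 10.5 RPKM, *Zfp57* fell by 1.00 and *Suv39h2* fell by 0.69. *Ehmt2* (0.23, adjusted p = 0.0078) and *Zfp809* (-0.33, adjusted p = 0.0148) were called with small changes, which turned direction after smoothing on GC content and exon length (-0.15 and 0.09, no call). *Zfp809* also lost its call without WT replicate 2 of day 11 (adjusted p = 0.0783) or WT replicate 1 of day 25 (adjusted p = 0.149). *Kdm1a* was not called (0.05, adjusted p = 0.364). The markers also differed between these WT groups, with ESC sums of 1739 and 1941 RPKM at day 11 and 1051 and 1079 RPKM at day 25, and fibroblast and feeder sums of 2.44 and 2.67 RPKM and then 0.570 and 0.808 RPKM. Each day is a separate set of libraries, and the part of time in culture was not tested.

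Some members' KO minus WT differences over the 8 days ran together or against each other. The 5 pairs given first are those with the highest and the lowest r of all member pairs. How often other genes reach such values was not computed. *Trim28* and *Ehmt2* had a Pearson r of 0.94 over the 8 days, *Atrx* and *Suv39h2* one of 0.91 and *Setdb1* and *Suv39h1* one of 0.85. *Zfp57* ran against *Trim28* (-0.93) and *Ehmt2* against *Atrx* (-0.92). These values describe 8 points that each rest on the same 4 libraries for both genes, with day 6 as labelled. Without day 6 the 5 values, in the same order, were 0.94, 0.97, 0.76, -0.93 and -0.97, and without day 25 they were 0.88, 0.52, 0.70, -0.87 and -0.80. The members did not fall into separate pairs. Over the 8 days *Suv39h2* with *Ehmt2* had an r of -0.91, *Ehmt1* with *Atrx* one of -0.88 and *Ehmt1* with *Ehmt2* one of 0.79. Among all genes tested, the 3 whose differences were most like those of *Setdb1* were *Ube2d2*, *Naf1* and *Arid2* (r of 0.98, 0.97 and 0.97). For *Atrx* they were *Gipc1*, *Pik3c2a* and *Ccdc90b* (0.998, 0.993 and 0.991), and for *Ehmt1* *Appbp2*, *Atg2b* and *Diap1* (0.99, 0.98 and 0.98). For *Suv39h1* they were *Rbm12*, *Fnbp4* and *Zcchc14* (0.99, 0.99 and 0.98), for *Ehmt2* *Polr1b*, *Ccs* and *Gm17029* (0.98, 0.97 and 0.97), for *Zfp809* *Exoc6b*, *Col8a1* and *Bmp4* (0.96, 0.94 and 0.91) and for *Zfp57* *Gm16049*, *4933427J07Rik* and *1700120B22Rik* (0.96, 0.96 and 0.95). These 21 ranks hold for the 8 days with day 6 as labelled. Without day 6, 5 of the 21 stayed among the 3 most alike, and without day 25, 3 did, with the lowest r at 0.85 and 0.92.

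Other genes of H3K9 methylation and its neighbouring pathways, the demethylases that remove the mark included, were examined as lists of 54 genes, of which 47 could be tested. Their values come from the main fit alone. Centring, smoothing, adding the third pair of day 1 and leaving out single libraries were not examined for them. Over the 5 days 8 were higher in KO, 21 lower and 18 not called, with a median of -0.05 against 0.06 for all genes, of which 37.8% were called higher and 20.7% lower. Without day 25, 9 were higher and 18 lower, against 3943 of 11594 genes higher and 19.2% lower among all genes. With the demethylases left out, 7 of 39 were higher and 15 lower over the 5 days, and 9 and 15 without day 25. The 3 HP1 genes, whose proteins bind methylated H3K9, were all lower, with a median of -0.27. *Cbx1* (HP1β) had a mean difference of -0.37 (SE 0.025, adjusted p = 5.1e-11), *Cbx5* (HP1α) of -0.27 (adjusted p = 3.5e-08) and *Cbx3* (HP1γ) of -0.17 (adjusted p = 6.8e-04). *Cbx1* had 38.0 and 38.8 RPKM in WT and 24.99 and 25.6 RPKM in KO at day 17. All 3 were also called lower without day 25 (-0.37, -0.13 and -0.23). The list of other KRAB zinc finger genes held 4 picked by name, so it does not describe the whole family. The 3 tested were lower over the 5 days, *Zfp445* (-0.27, adjusted p = 2.0e-06), which acts beside *Zfp57* at imprinted loci, *Gm15446* (-0.24, adjusted p = 2.7e-04) and *Zfp932* (-0.21, adjusted p = 1.2e-04). They were so without day 25 as well (-0.22, -0.35 and -0.29). On each of days 3, 9 and 25 alone, 1 of the 3 was called lower, and at day 25 their median was 0.11.

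Of 8 tested H3K9 demethylase genes, 6 were lower, 1 higher and 1 not called, with a median of -0.30. Of all genes, 20.7% were called lower and 37.8% higher. The 3 with the largest differences were *Jmjd1c* (-0.44, SE 0.041, adjusted p = 9.7e-09), *Kdm4a* (-0.37, adjusted p = 0.0013) and *Kdm3b* (-0.31, adjusted p = 1.3e-04). Without day 25, 3 were lower and 5 not called, against 19.2% of all genes lower, and *Kdm4a* was at -0.12 (adjusted p = 0.336) and *Kdm3b* at -0.14 (adjusted p = 0.0700). At day 25 *Kdm4a* had 6.77 and 7.53 RPKM in WT and 2.55 and 2.80 RPKM in KO. *Jmjd1c* stayed lower without that day (-0.41, adjusted p = 1.7e-07).

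The other lists were mixed, and for several of them the calls differed without day 25. Of all genes, 37.8% were called higher and 20.7% lower over the 5 days, and 39.8% and 26.2% at day 25 alone. Without day 25, 3943 of 11594 genes were called higher and 19.2% lower. The counts of these short lists were not tested against those shares. Of 11 TRIM28 partners 3 were higher, 4 lower and 4 not called, with *Chd3* (0.38, adjusted p = 3.3e-05), *Trim33* (-0.29, adjusted p = 5.0e-08) and *Chd4* (-0.28, adjusted p = 0.0059) the farthest from 0. In the HUSH complex, which spreads H3K9 trimethylation over integrated transgenes and young retrotransposons, 1 of 4 genes was called, *Mphosph8*, lower (-0.24, adjusted p = 2.1e-06), while *Fam208a* (-0.05), *Morc2a* (0.04) and *Pphln1* (0.02) were not. Without day 25, *Mphosph8* (-0.32) and *Fam208a* (-0.15, adjusted p = 8.1e-04) were lower and *Morc2a* was higher (0.13, adjusted p = 0.0333). Among the partners of ATRX and the histone chaperones 2 of 6 were higher and none lower, *Daxx* (0.18, adjusted p = 1.2e-04) and *Asf1b* (0.16, adjusted p = 0.0106). Without day 25, 3 of the 6 were higher and 1 lower, and at day 25 alone 2 were higher and 2 lower. Of 5 tested KDM1A partners *Rcor2* was higher (0.27, adjusted p = 4.7e-05) and *Phf21a* lower (-0.24, adjusted p = 0.0011), which without day 25 was not called (-0.14, adjusted p = 0.0787). Of 5 methyltransferase cofactors and further H3K9 methyltransferases *Setdb2* was higher (0.27, adjusted p = 2.1e-04) and *Cdyl* (-0.16, adjusted p = 0.0016) and *Zfp644* (-0.08, adjusted p = 0.0388) were lower. Without day 25, 2 of these 5 were higher and 1 lower, and *Cdyl* was not called (-0.05, adjusted p = 0.347). *Hells*, a remodeller needed for DNA methylation, was lower (-0.09, adjusted p = 0.0205) and *Smchd1* was not called (0.05, adjusted p = 0.104). Both were higher in KO at day 25, *Hells* at 0.43 (adjusted p = 3.3e-05) and *Smchd1* at 0.39 (adjusted p = 1.7e-05), and without that day *Hells* was at -0.22 (adjusted p = 2.7e-05) and *Smchd1* at -0.03 (adjusted p = 0.437).

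The last comparison set the single Dicer KO library beside the 6 WT libraries of days 11, 17 and 25, which have a like gene-read share. With 1 library there is no test of the genotype. *Dicer1* RNA in it was at 4.01 RPKM, inside the WT range of 3.90 to 8.57 RPKM, and *Dnmt1* was at 34.8 RPKM. None of the 10 genes differed from the WT mean by more than 1 log2 unit, a size that 23.5% of all genes passed. *Suv39h1* was at 7.90 RPKM, above the WT range (3.04 to 5.67 RPKM, a log2 difference of 0.93), and *Suv39h2* at 3.78 RPKM, below it (5.10 to 8.50 RPKM, -0.90). *Kdm1a* with 18.7 RPKM (WT 23.8 to 25.7) and *Ehmt2* with 11.04 RPKM (WT 11.6 to 14.03) were also below. These 4 of 10 outside the WT range compare with 59.1% of all genes. The other 6 lay within it: *Zfp57* at 46.9 RPKM (WT 29.5 to 61.0), *Zfp809* at 5.52 (5.43 to 7.47), *Trim28* at 86.5 (40.1 to 155), *Setdb1* at 13.1 (9.94 to 15.8), *Ehmt1* at 6.27 (4.83 to 9.48) and *Atrx* at 21.1 (10.5 to 33.6). After centring *Suv39h2* was at -1.13, past 1 log2 unit, and without either WT library of day 25 1 member passed it. The fibroblast and feeder markers summed to 31.0 RPKM in this library, against at most 2.67 RPKM in the high-share WT and KO libraries, with *Thy1* at 8.56 and *Col1a1* at 5.21 RPKM. Their part in the values of the 10 genes was not tested.

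**Figure D4:**
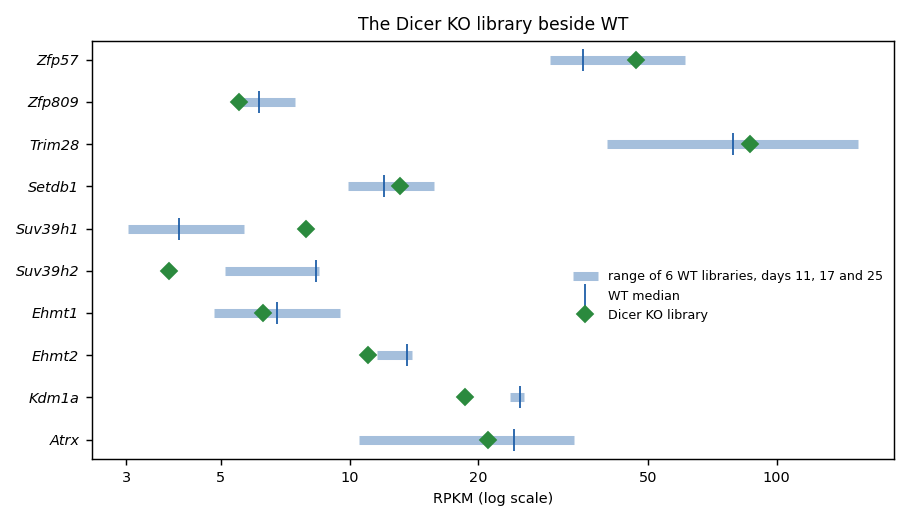
RPKM of the 10 genes (horizontal axis, log scale) in the Dicer KO library (green diamonds) beside the range (blue bar) and median (blue tick) of the 6 WT libraries of days 11, 17 and 25. *Suv39h1* lies above its WT range, and *Suv39h2*, *Ehmt2* and *Kdm1a* lie below theirs.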

How the data were processed

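Ribosomal RNA was removed from total RNA and 35 libraries were sequenced. The submitters' processing notes name Trim Galore 0.3.5 and TopHat2 2.0.11 and the build NCBIM37. By the study's methods, poorly mapped reads were dropped and SeqMonk gave gene values. RPKM were deposited by the authors on a linear scale. No further scaling between libraries is stated, and the methods name log2 RPM for expression.

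Reads were recovered from RPKM and GENCODE vM1 exon lengths (99.9% of rows matched), and gave the depth of each library. The test was limma 3.58.1 (R 4.3.3; lmFit on log2(RPKM + 0.1), group means, eBayes with a trend) over the 11594 genes that passed 1 RPKM in 2 or more of the 32 libraries. This scale understates the change of low genes. Contrasts were called at a Benjamini-Hochberg adjusted p below 0.05 over all genes. The limma steps were tested on simulated data with the same spread beyond sampling noise for all genes and groups. That test cannot show how the fit behaves where groups differ in noise, as they do here. Python 3.11.15, numpy 2.4.6, pandas 2.3.3 and matplotlib 3.10.9 were used elsewhere. Likeness is Pearson's r of KO minus WT over 8 days. The mean without day 25, likeness with a day left out, lists without demethylases and the crossed block were added after the data were seen.

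All 10 members are named. Genes of the pathway lists are named where called over days 3, 9, 11, 17 and 25, at most 3 a list, or where a list has at most 4 genes. Members, lists and tests were chosen with earlier results of these data known. List symbols were matched through RefSeq synonyms where needed. Every pair of replicates differed by more than sampling noise (lowest chi-square of 1.31 for each degree of freedom). The noise was uneven, with 39.8 for KO at day 11 and 13.1 for WT at day 17. The main fit shares the spread of a gene over all groups, so its SE and p-values do not follow these differences. Alternatives were other pseudocounts, filters and scalings, voom on recovered reads, a replicate block, fits of only the groups compared, smoothing on GC content and exon length (lowess, added after the data were seen) and leaving out each library. Counting error alone is covered by read numbers, since reads carry no molecular identifiers.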

Additional observations from a re-analysis of the deposited data

Results flagged for a closer look

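The KO effect (KO minus WT, log2 scale) differed between the late days 11, 17 and 25 and the early days 3 and 9 for 3 of the 10 genes by a limma contrast of the effects themselves, against 19.9% of all genes. It was 0.34 higher late for *Suv39h2* (SE 0.069, adjusted p = 0.0016), 0.35 higher for *Atrx* (SE 0.11, adjusted p = 0.0267) and lower for *Ehmt2* (-0.23, SE 0.066, adjusted p = 0.0161). Early and late days lie in libraries of different gene-read share, so day and share cannot be told apart here. *Atrx* lost the call without WT replicate 1 or KO replicate 1 of day 3, or WT replicate 2 or KO replicate 2 of day 9 (adjusted p up to 0.0660), and *Ehmt2* without WT replicate 2 of day 3 (adjusted p = 0.0593). After centring *Atrx* was at 0.29 and not called.

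Between days 25 and 17 the KO effect differed for 9 of the 10 genes by the same kind of contrast, against 55.1% of all genes, with changes of 0.49 for *Zfp57*, -0.81 for *Zfp809*, -0.54 for *Trim28*, -0.29 for *Setdb1*, -0.58 for *Suv39h1*, 0.63 for *Suv39h2*, -0.68 for *Ehmt1*, -0.38 for *Ehmt2* and 0.66 for *Atrx*. After centring, 6 of the 9 were called, without *Trim28* (-0.35), *Setdb1* (-0.10) and *Ehmt2* (-0.19).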

How the results depend on the processing

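Of the 81 single differences called for the 10 genes, all kept their direction under every alternative but 4, which turned after smoothing on GC content and exon length: *Setdb1* (0.0545) and *Ehmt2* (0.0881) for the KO effect of day 25 against day 17, and *Zfp809* (0.0900) and *Ehmt2* (-0.15) for WT day 25 against day 11. With all 34 WT and KO libraries 8 of the 81 passed the test, with voom 79, with median centring 68 and with only the groups compared 70. That fit of all 34 gave 0 members called at days 6, 9, 11 and 17, in all 4 means over days (the one without day 25 included), in both contrasts between KO effects, in WT day 9 against day 0 and in KO day 25 against day 17, 2 at day 25 and in WT day 25 against day 17, and 4 in WT day 25 against day 11. With only the groups compared, 2 were called at day 3, 6 at day 9, 0 at day 11, 1 at day 17 and 4 over days 11, 17 and 25. Median centring gave 1 at day 3, 5 at day 9 and 7 at day 17, and smoothing 1 at day 3 and 7 at day 17. Over days 3, 9, 11 and 17 the number was 4, and 7 after smoothing and 6 after centring. Without a filter on low values WT day 9 against day 0 had 3, and leaving day 25 out of the mean over 5 days gave 4. In Dicer KO, 3 members passed 1 log2 unit against WT of day 0, whose median over all genes was 1.05 log2 units away, and 1 after centring. The causes were not tested.

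Without 1 library at a time the counts lay between 0 and 2 at day 3, 1 and 3 at day 6, 1 and 6 at day 9, 3 and 5 at day 11, 1 and 4 at day 17, 8 and 9 at day 25, 6 and 8 over the 5 days, 4 and 5 over days 3, 9, 11 and 17, 2 and 6 over days 3 and 9, 5 and 8 over days 11, 17 and 25, 2 and 4 between late and early KO effects, 7 and 9 between the KO effects of days 25 and 17, 0 and 5 in WT day 9 against day 0, 8 and 9 in WT day 25 against day 11, 2 and 6 in KO day 25 against day 17 and 0 and 1 in Dicer KO. A lone library was assumed to vary like the other groups. The replicate numbers did not pair the libraries (correlation of deviations of same-numbered libraries between -0.15 and 0.26 over the 8 days). A replicate block gave 1 call at day 3 and a block crossed at days 1 and 17 gave 0 there. Each kept 79 of the 81.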
